A study of Mus musculus with 8 samples.

Results

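Potassium channel genes were described in triceps muscle of mice that lack Nf1 in limb mesenchyme. The set held every gene whose symbol begins with Kcn, followed by a subfamily letter code and a number, in the probe set table deposited with the series, 93 of its 22310 gene symbols. Of these 93 genes, 88 had a level on each of the 8 arrays and were tested among 19938 genes. The other 5 have no level per array here. The choice used symbols only and no measured value.

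Triceps was taken at 3 months of age from 4 wild-type control mice and 4 Nf1Prx1 mice on standard chow, and each animal gave the RNA for 1 array of the type Affymetrix Mouse Gene 1.0 ST. Nf1Prx1 mice carry a conditional deletion of Nf1, which encodes neurofibromin, a protein that switches Ras off. The Cre recombinase is driven by the Prx1 limb enhancer and acts in the mesenchyme of the limb bud, while fibres, endothelium, nerve and blood cells that never had Cre activity retain it. The comparison asks which transcripts of adult muscle differ when limb mesenchyme loses neurofibromin.

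Potassium channels let potassium ions leave or enter a cell and so set its resting voltage and end its electrical impulses. In skeletal muscle fibres, inward rectifiers hold the resting voltage, ATP-sensitive channels link it to the energy state, and voltage-gated and calcium-activated channels end the action potential or carry current between impulses. A pore is built from alpha subunits, which auxiliary subunits modify. Vessels, nerve and immune cells in the muscle use channels of their own, and a whole-muscle level sums over all of them. In such a level, fewer cells of a type and less RNA per cell cannot be told apart.

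Levels are RMA values on a log2 scale, so a difference of 1 is a doubling or a halving. Nf1 itself stood at 8.82, 8.92, 8.98 and 8.69 in control 1 to 4 and at 8.81, 8.63, 8.73 and 8.72 in Nf1Prx1 1 to 4. These groups overlapped, and a cluster that also reads RNA outside the deleted part does not test the deletion. Fast-fibre genes had mean levels of 12.86 to 13.34 on the 8 arrays, so the muscle label held. A pair of arrays, control 1 and Nf1Prx1 1, stood apart. Their mean over 8 neutrophil and bone marrow genes was 9.03 and 9.57, against 6.61 to 7.16 on the other arrays, and Ucp1, the uncoupling protein of brown fat, stood at 10.18 and 9.75 against 6.01 to 6.24. Xist, the X-inactivation RNA of female cells, was at 10.54 to 11.35 in control 2, control 4, Nf1Prx1 3 and Nf1Prx1 4 and at 5.52 to 5.86 in the others, so both groups held the same number of arrays with it and the numbers 2 and 3 joined arrays that differed.

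Like most genes, most potassium channel genes differed little between the groups. The ones that passed in a fit that pairs arrays by replicate number were all lower in Nf1Prx1 triceps. In the unpaired limma fit none of the 88 passed at an adjusted p of 0.05, where 0.00% of all genes did, and the smallest adjusted p among them was 0.148. Without adjustment 9 of the 88 had a p under 0.05, against 13.6% of all genes. Arrays with the same replicate number deviated together, clearly for numbers 1 and 2 and less so for 3 and 4. A fit with the number as a block (the paired fit) was therefore added. There Kcnj2, Kcnc1, Kcna7, Kcnj11, Kcnq5, Kcnn2 and Kcnj13 passed, 7 of 88 or 7.95%, where 8.36% of all genes passed in either direction, with 5.0% of all genes lower and 3.36% higher. The share of members called was therefore near that of all genes. Brighter genes were called more often, and of the 24 members at or above the median gene level 5 fell, where 9.14% of all such genes did. None of the 88 passed toward higher levels in either of these fits. The median member differed by -0.01 and the median of all genes by -0.04. Within 0.25 of no difference lay 68 of the 88 members and 14870 of all 19938 genes. Below, fell, rose and passed refer to the paired fit unless another is named, and adjusted p values are from that fit over all genes unless named otherwise.

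**Figure D1:**
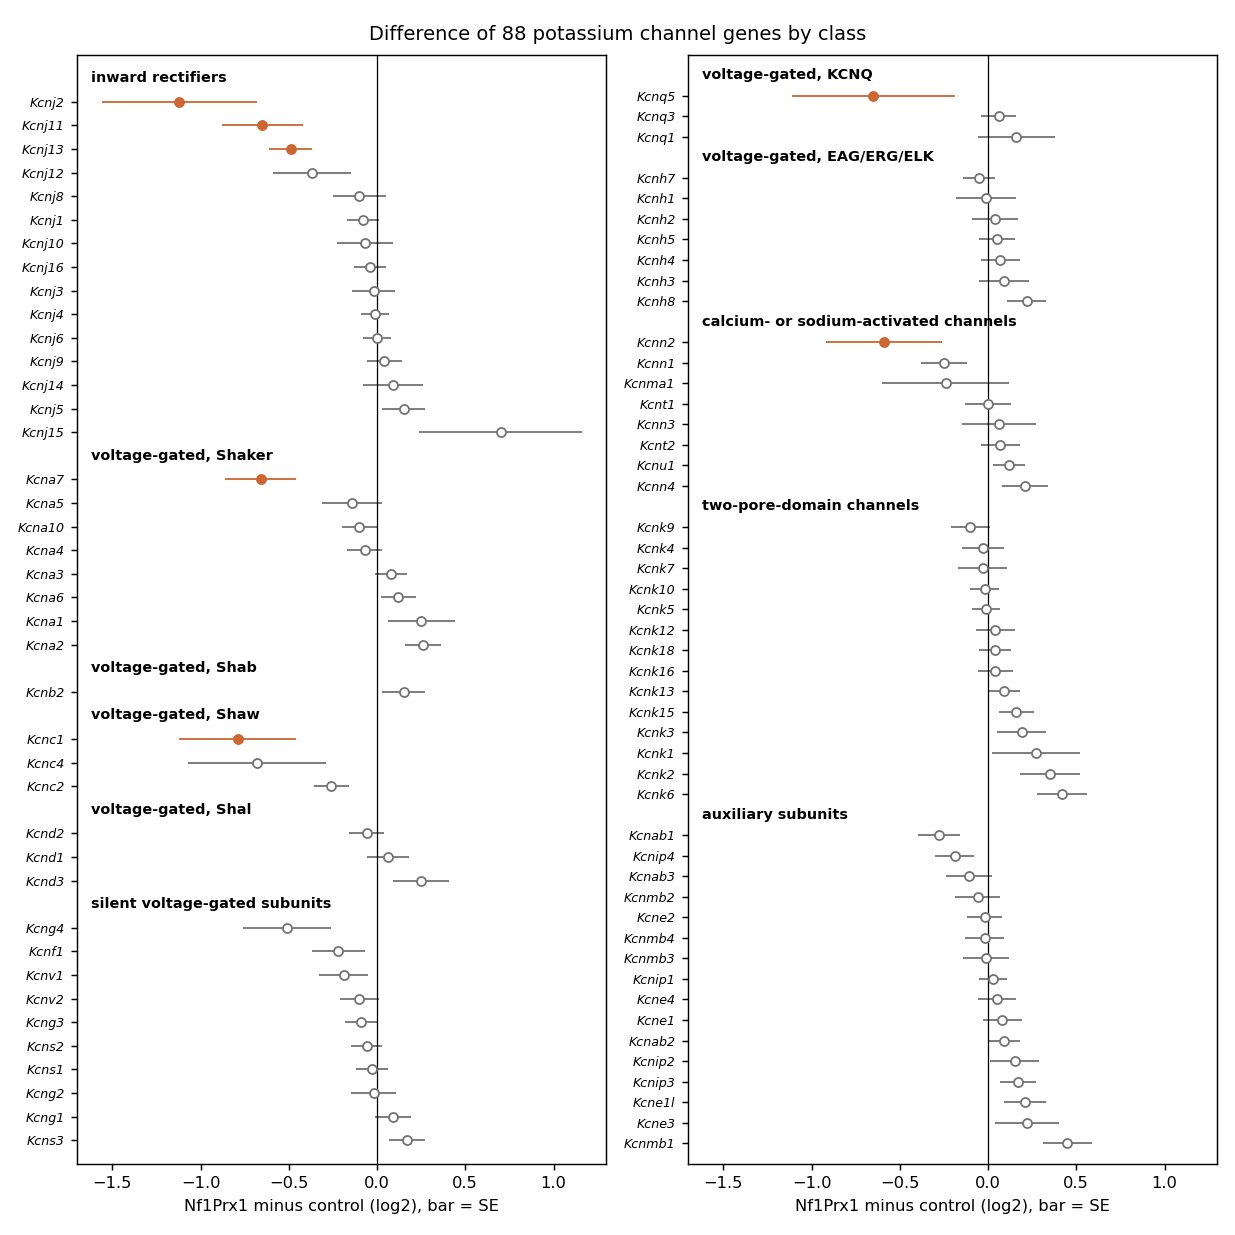
Difference between Nf1Prx1 and control triceps (log2, horizontal axis) for each of the 88 measured potassium channel genes, grouped by class. Points are differences of the group means, bars are the standard error of the unpaired limma fit, and filled orange points passed in the paired fit. The 7 filled points, from -1.12 for Kcnj2 to -0.49 for Kcnj13, all lie left of 0.

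The calls rested on the pairing and on particular arrays. In the paired fit without the arrays numbered 1, 2 or 3, the members called were 5, 8 or 4 of the 88, all lower. Of all genes 3.61%, 6.03% and 1.03% were called there, and 1.47%, 2.58% and 0.451% were called lower. Without number 4 no member passed and 0.251% of all genes did, with adjusted p values of 0.0664 to 0.0888 for the 7 genes. Kcnc1, Kcna7 and Kcnj11 passed in all of the first 3 of these fits. Kcnj2 and Kcnj13 were lost without number 1 (adjusted p = 0.0877 and 0.0557) and without number 3 (0.0674 and 0.0909). Kcnn2 and Kcnq5 were lost without number 3 (0.0748 and 0.0582). All 7 had a lower mean in Nf1Prx1 under each alternative in which they were fitted, and each was lower in all 4 pairs, as were 21.3% of all genes. In all, 14 of the 88 members were lower in all 4 pairs and 8 were higher in all 4 pairs, against 11.8% of all genes higher.

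The starts of the 3 genes with the largest falls, Kcnj2, Kcnc1 and Kcna7, are shown so that their sequence stands beside their values. Windows of 300 bases, from 250 before to 50 after the start of transcription, were taken from RefSeq (GRCm38.p6), where 68 of the 93 members had at least 1 window, and each of these 3 genes had 1. They are printed 5′ to 3′. Capitals mark the E-box letters CANNTG, the motif read by the MyoD family of muscle regulators among other factors, which is the same on both strands.
Kcnj2, chr11:111065914-111066213, plus strand: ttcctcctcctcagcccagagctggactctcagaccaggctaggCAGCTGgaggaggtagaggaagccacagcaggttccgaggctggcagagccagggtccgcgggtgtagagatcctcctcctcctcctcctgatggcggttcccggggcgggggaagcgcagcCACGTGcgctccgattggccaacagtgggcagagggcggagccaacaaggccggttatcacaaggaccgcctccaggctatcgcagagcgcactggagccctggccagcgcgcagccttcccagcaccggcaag
Kcnc1, chr7:46396218-46396517, plus strand: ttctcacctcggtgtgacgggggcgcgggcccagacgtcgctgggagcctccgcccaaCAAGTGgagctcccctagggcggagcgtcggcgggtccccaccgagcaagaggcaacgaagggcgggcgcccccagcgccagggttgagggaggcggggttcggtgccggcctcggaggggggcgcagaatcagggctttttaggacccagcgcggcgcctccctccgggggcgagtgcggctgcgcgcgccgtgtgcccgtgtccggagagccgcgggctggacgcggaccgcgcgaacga
Kcna7, chr7:45405710-45406009, plus strand: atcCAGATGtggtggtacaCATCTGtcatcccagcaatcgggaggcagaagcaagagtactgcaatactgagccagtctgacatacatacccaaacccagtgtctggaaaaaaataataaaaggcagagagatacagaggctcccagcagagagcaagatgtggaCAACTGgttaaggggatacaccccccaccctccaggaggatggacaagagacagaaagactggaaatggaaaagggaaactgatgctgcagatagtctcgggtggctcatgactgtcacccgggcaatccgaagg
Kcnj2 held 2 matches, Kcnc1 held 1 and Kcna7 held 3. In Kcnj2 1 of the matches was CAGCTG, a form included in CANNTG. The genes that fell had 6 windows, 1 each for these 3 genes and for Kcnj13, which held 2 matches, and 2 for Kcnq5, which held none. The E-box letters were thus present in 4 of the 6 windows, in 73.1% of the windows of potassium channel genes and in 72.3% of the 32851 windows of all genes. CAGCTG was in 2 of the 6 windows, in 25.8% of the channel windows and in 16.3% of all windows. The letters G and C made up a median of 58.0% of the channel windows and 52.67% of all windows. The MEF2 motif was in none of the 6, in 1.08% of the channel windows and in 0.557% of all windows. A match is a match of letters only, and no binding was measured.

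Among the inward rectifiers, the channels that hold the resting voltage, 3 of 15 fell, none rose and 12 did not pass. Kcnj2 encodes Kir2.1, the main resting rectifier of muscle fibres. Its level was 9.26, 9.92, 10.22 and 10.01 in control 1 to 4 and 7.67, 8.12, 9.60 and 9.55 in Nf1Prx1 1 to 4. Nf1Prx1 1 and 2 lay far below every control, while Nf1Prx1 3 and 4 lay above control 1, so the groups overlapped. The mean fell 2.17-fold, from 9.85 ± 0.42 to 8.74 ± 0.99 (SD, n = 4; log2 difference -1.12, paired SE 0.23, adjusted p = 0.0311; unpaired adjusted p = 0.315). The pair differences were -1.59, -1.80, -0.62 and -0.46, so the size was not the same in each pair. Without control 1 and Nf1Prx1 1 the difference was -0.96. With array weights, which count control 1, Nf1Prx1 1 and Nf1Prx1 2 least, it was -0.55 and did not pass (adjusted p = 0.152).

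Kcnj11 encodes Kir6.2, the pore of the ATP-sensitive channel that opens when fibres run short of energy. It read 8.82, 9.43, 9.51 and 9.27 in the controls and 8.02, 8.65, 9.06 and 8.68 in the Nf1Prx1 arrays. Nf1Prx1 3 was above control 1, and the other Nf1Prx1 arrays were below all controls. It fell 1.57-fold (log2 difference -0.65, paired SE 0.09, adjusted p = 0.0137; unpaired adjusted p = 0.257). Kcnj13, the Kir7.1 channel known from epithelia such as the choroid plexus, was 6.81, 7.23, 6.99 and 6.88 in the controls and 6.35, 6.61, 6.42 and 6.57 in the Nf1Prx1 arrays. Every Nf1Prx1 array was below every control. It fell 1.41-fold (log2 difference -0.49, paired SE 0.09, adjusted p = 0.0223) and had the smallest unpaired adjusted p of the members, 0.148. Kcnj13 lay under the median gene level, which a filter on dim genes removed.

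Other rectifiers did not pass. Kcnj12, which encodes Kir2.2, a partner of Kir2.1, was lower in all 4 pairs, by 0.82, 0.20, 0.30 and 0.17, with an adjusted p of 0.109. Kcnj8, the Kir6.1 pore of ATP-sensitive channels in vessel walls, stood at 9.34 ± 0.12 in control and 9.24 ± 0.29 in Nf1Prx1 triceps (adjusted p = 0.690). Its values were 9.36, 9.34, 9.48 and 9.19 in the controls and 9.30, 8.82, 9.38 and 9.46 in the Nf1Prx1 arrays, with full overlap. Kcnj10, the Kir4.1 channel of glia, differed by -0.07 (adjusted p = 0.726). The remaining 8 rectifiers, Kcnj15 aside, lay between -0.08 and 0.15.

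Among the voltage-gated alpha subunits, 1 member each of the Shaw, Shaker and KCNQ subfamilies fell, and the others did not pass. Kcnc1 and Kcnc4, the Shaw-type subunits Kv3.1 and Kv3.4, make fast channels that end brief impulses. Kcnc1 was 8.29, 9.27, 9.54 and 9.43 in the controls and 7.60, 8.24, 8.90 and 8.64 in the Nf1Prx1 arrays. Control 1 was low among the controls, which made the groups overlap, but the pair differences were alike, at -0.69, -1.03, -0.65 and -0.79. Kcnc1 fell 1.73-fold, from 9.13 ± 0.57 to 8.34 ± 0.57 (SD, n = 4; paired SE 0.09, adjusted p = 0.00871; unpaired adjusted p = 0.351), and had the smallest paired p of all members. Kcnc4 was 9.10, 9.88, 9.85 and 10.35 in the controls and 8.14, 8.78, 9.83 and 9.70 in the Nf1Prx1 arrays. Pair 3 hardly differed, by -0.02, and the mean difference of -0.68 did not pass (adjusted p = 0.0526). It passed without the arrays numbered 3 (adjusted p = 0.0458). Kcnc2, or Kv3.2, was below every control in each Nf1Prx1 array, at 5.80 to 5.95 against 5.99 to 6.33, with a difference of -0.26 (adjusted p = 0.156). With Kcnj13 and the ether-à-go-go relative Kcnh8, higher at 6.72 to 6.97 against 6.40 to 6.72, it made 3 members whose groups did not overlap, where 8.62% of all genes had such groups, 6.04% lower and 2.58% higher. Without control 1 and Nf1Prx1 1 such groups were seen in 22 of the 88 members and in 23.7% of all genes. The higher level of Kcnh8 was not shared by the probe sets the authors deposited. Of its 12 probe sets there, 10 were lower in the mutants, with a median of -0.09. Kcnh8 also had 2 clusters on the arrays, and its difference of 0.22 was 0.1 with the mean of all clusters.

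Kcna7, the Shaker-type subunit Kv1.7 found in skeletal and heart muscle, was 9.03, 9.21, 9.49 and 9.26 in the controls. It was 8.09, 8.52, 9.08 and 8.64 in the Nf1Prx1 arrays, of which only Nf1Prx1 3 reached the lowest control. It fell 1.59-fold, from 9.25 ± 0.19 to 8.58 ± 0.41 (SD, n = 4; paired SE 0.10, adjusted p = 0.0163; unpaired adjusted p = 0.197). Of the other 7 Shaker genes none passed. Kcna5, the Kv1.5 subunit of heart, vessel and muscle, differed by -0.14. Kcna3, the Kv1.3 channel of T cells and macrophages, differed by 0.08. Kcna1, a subunit of nerve axons, differed by 0.25 with Nf1Prx1 4 the highest at 8.56. Kcna2, a partner of Kcna1 in axons, differed by 0.26 (adjusted p = 0.141).

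Kcnq5, whose Kv7.5 channel carries a slow current known as the M current, was 8.62, 10.12, 10.32 and 10.24 in the controls and 8.06, 9.58, 9.75 and 9.33 in the Nf1Prx1 arrays. Control 1 and Nf1Prx1 1 were both well below the rest of their groups. The pair differences were -0.56, -0.54, -0.56 and -0.91, so the fall of 1.56-fold was seen within pairs (adjusted p = 0.0145, paired SE 0.09) and not against the spread of all arrays (unpaired adjusted p = 0.592, SE 0.46). In the unpaired fit the difference of -0.65 became -1.05 without control 1 and -0.27 without Nf1Prx1 1, and it was -0.67 without both. Kcnq1, the Kv7.1 channel of heart and epithelia, and Kcnq3, a partner in the neuronal M current, differed by 0.16 and 0.06. Kcng4, a silent subunit that works only with Shab partners, was lower in 3 of 4 pairs, by 0.98, 0.85 and 0.42, and higher by 0.21 in pair 2 (adjusted p = 0.141). It passed without the arrays numbered 2 (adjusted p = 0.0217). The measured genes of the Shab, Shal and EAG/ERG/ELK subfamilies, 11 in all, had no call, and neither had the 10 silent subunits.

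Of the 8 calcium- or sodium-activated channels 1 fell. Kcnn2, the small-conductance SK2 channel, was 6.54, 7.27, 7.95 and 7.76 in the controls and 6.22, 6.61, 7.33 and 7.01 in the Nf1Prx1 arrays. The 2 ranges overlapped widely, but every pair was lower, by 0.32, 0.66, 0.62 and 0.75. It fell 1.5-fold (paired SE 0.10, adjusted p = 0.0185; unpaired adjusted p = 0.486), and like Kcnj13 it lay under the median gene level. Kcnn3, the SK3 channel that denervated muscle is known to express, was 7.78 ± 0.21 in control and 7.84 ± 0.43 in Nf1Prx1 triceps (adjusted p = 0.818). Kcnn1, or SK1, was lower in all 4 pairs with a difference of -0.25 (adjusted p = 0.152). Kcnma1, the pore of the large-conductance BK channel, was 9.15, 9.96, 10.20 and 10.08 in the controls and 8.68, 9.35, 10.34 and 10.05 in the Nf1Prx1 arrays. It differed by -0.24, with pair 3 higher (adjusted p = 0.324).

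**Figure D2:**
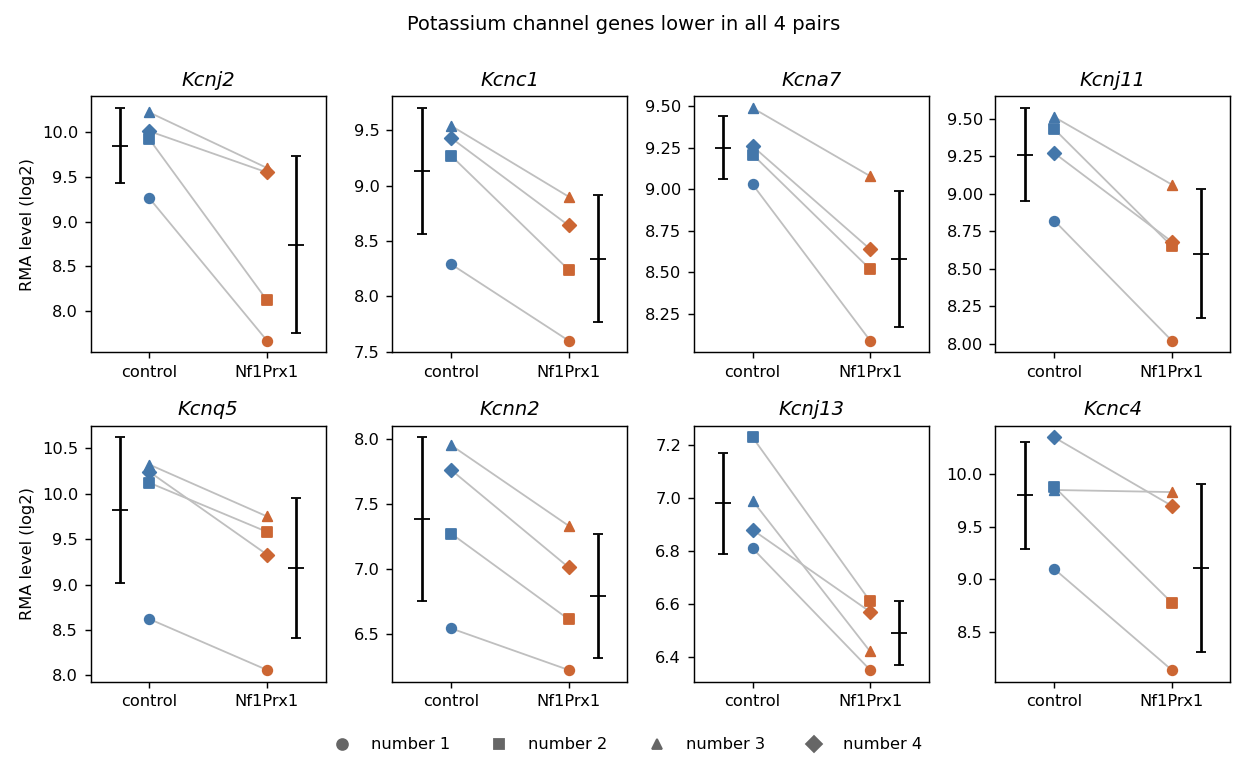
RMA level (log2, vertical axis, a separate scale for each gene) of the 7 potassium channel genes that passed in the paired fit and of Kcnc4, which did not. Points are arrays, symbols are replicate numbers, grey lines join arrays of the same number and black bars are the mean ± SD of 4 arrays. Every line slopes down, and number 1 (circles) is lowest in both groups for all 8 genes.

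The arrays also differed in transcripts of muscle and of other cell types. The mean of 9 fast-fibre genes was 13.28 to 13.34 in control and 12.86, 13.07, 13.31 and 13.22 in Nf1Prx1 1 to 4, with none of the 9 called. The mean of 8 slow-fibre genes was 9.39 to 10.07 in control and 8.28, 8.19, 10.11 and 8.06 in Nf1Prx1 1 to 4, with 4 lower. Adipocyte genes moved the other way, with 6 of 7 higher and mean levels of 11.19, 9.17, 9.08 and 9.17 in control 1 to 4 and of 12.29, 10.21, 10.64 and 11.08 in Nf1Prx1 1 to 4. Fibroblast genes ranged from 9.90 to 10.97 in control and from 10.34 to 11.13 in Nf1Prx1 triceps, with 4 of 7 higher. The part of these differences in the channel levels was not tested. Of 12 genes known from denervated fibres 1 was higher and 1 lower, with a median difference of -0.03.

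In the paired fit no member passed toward higher levels. Kcnmb1, the beta subunit that tunes BK channels in smooth muscle, was 7.12, 6.73, 7.01 and 6.77 in the controls and 7.39, 7.03, 7.41 and 7.60 in the Nf1Prx1 arrays. All 4 pairs were higher, but Nf1Prx1 2 lay below control 1, and the difference of 0.45 did not pass (paired SE 0.11, adjusted p = 0.0520). The mean of 7 smooth muscle genes was 8.42 to 8.56 in control and 8.13 to 8.71 in Nf1Prx1 triceps. The fit with array weights gave control 1, Nf1Prx1 1 and Nf1Prx1 2 weights of 0.364, 0.351 and 0.265 and called 15.4% of all genes. There Kcnmb1, Kcna1 and Kcna2 passed toward higher levels, as did 7.14% of all genes. Lower in that fit were 6 members, Kcna7, Kcnc1, Kcnc2, Kcnj11, Kcnj13 and Kcnv2, as were 8.26% of all genes. Kcnj2, Kcnn2 and Kcnq5 did not pass there (adjusted p = 0.152, 0.0807 and 0.0709).

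Tandem-pore (Kcnk) channels carry the background leak of potassium. Of 14 members none passed, 9 had a higher mean and the median difference was 0.04. Kcnk6, the TWIK-2 channel of vessels and immune cells, was 8.14, 7.93, 8.00 and 8.26 in the controls and 8.34, 8.75, 8.26 and 8.66 in the Nf1Prx1 arrays. It was higher in all 4 pairs by a mean of 0.42 (adjusted p = 0.0718), and only Nf1Prx1 3 did not lie above the highest control. Kcnk2, the stretch-sensitive TREK-1 channel, was 7.48, 7.33, 7.11 and 7.27 in the controls and 8.17, 7.53, 7.36 and 7.53 in the Nf1Prx1 arrays. Its groups overlapped at Nf1Prx1 3 (difference 0.35, adjusted p = 0.0841). Kcnk3, the acid-sensitive TASK-1 channel, differed by 0.19, Kcnk13 by 0.09 and Kcnk5 by -0.01.

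Kcnj15, the Kir4.2 rectifier, had the largest positive difference, 0.70, and owed its size to 1 array. It was 9.12 in Nf1Prx1 1 and 6.86 to 6.93 in the other Nf1Prx1 arrays, against 6.59 to 7.04 in the controls. Without control 1 and Nf1Prx1 1 its difference was 0.23. Kcnn4, the calcium-activated channel of blood and immune cells, was higher in all 4 pairs by a mean of 0.21 (adjusted p = 0.232). The mean of 9 macrophage genes was 7.77 to 8.57 in control and 8.19 to 8.68 in Nf1Prx1 triceps, with 4 higher. For comparison, 3.36% of all genes were called higher. The mean of 7 lymphocyte genes was 8.05 in Nf1Prx1 1, 6.72 to 6.85 in the other Nf1Prx1 arrays and 6.48 to 6.94 in control. The part of either list in these levels was not tested.

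**Figure D3:**
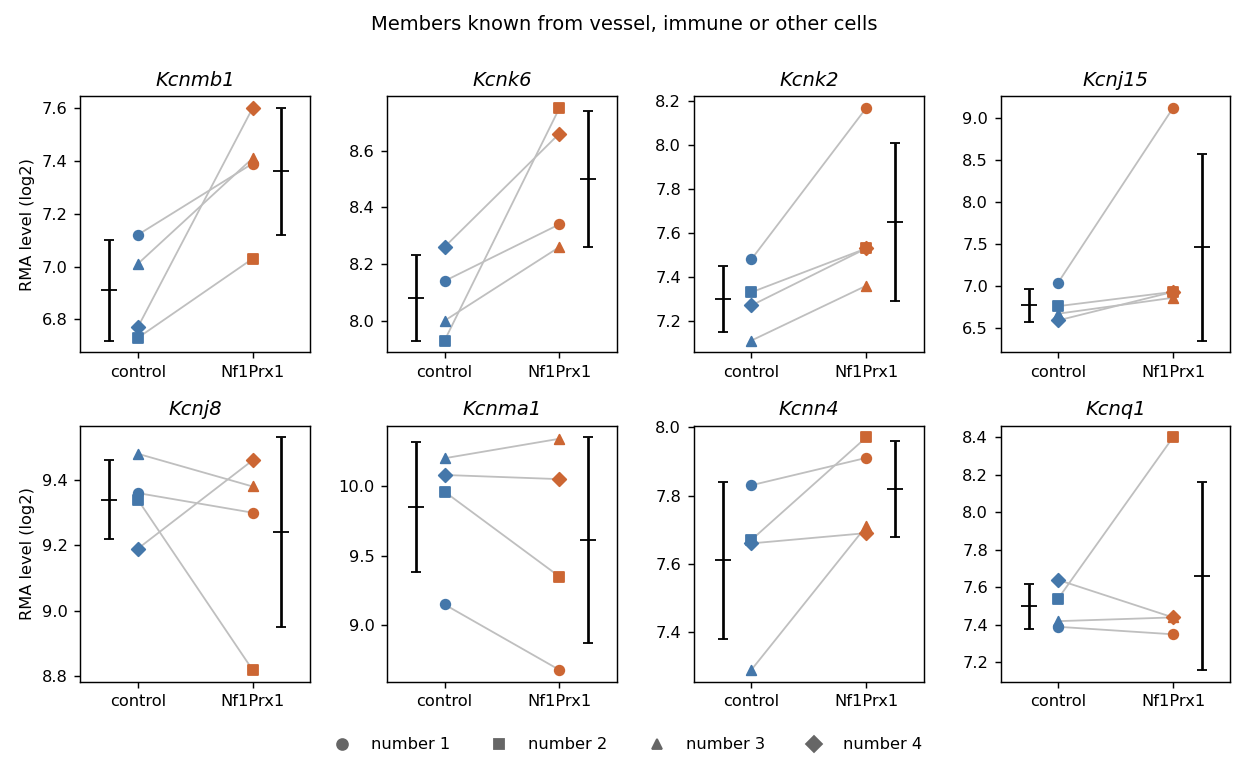
RMA level (log2, vertical axis, a separate scale for each gene) of 8 potassium channel genes known from vessel, immune or other cells, none of which passed in the paired fit. Symbols are replicate numbers, grey lines join arrays of the same number and black bars are the mean ± SD of 4 arrays. Kcnj15 in Nf1Prx1 1 (9.12) and Kcnq1 in Nf1Prx1 2 (8.40) stand alone.

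Auxiliary subunits had no call among 16 members, and their median difference was 0.04. These proteins sit beside or under the pore and change its gating or its transport to the membrane. Kcnab1, a beta subunit of Shaker channels, was lower in all 4 pairs by a mean of 0.28 (adjusted p = 0.183). Kcnab2, its relative, differed by 0.09. Kcne3, a small single-pass subunit that pairs with Kv3.4 in muscle, was 6.34 ± 0.38 in control and 6.56 ± 0.14 in Nf1Prx1 triceps (adjusted p = 0.256). Kcne1l, now also named Kcne5, differed by 0.21 (adjusted p = 0.332).

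Partners of these channels that the symbol rule leaves out were listed by their function. Of 14 measured genes for channel partners and related channels 3 were lower and none higher, with a median of -0.08. Abcc9, the sulfonylurea receptor SUR2 that joins Kir6.2 in muscle, was 10.42, 11.26, 11.40 and 11.27 in the controls and 10.12, 10.71, 11.16 and 10.90 in the Nf1Prx1 arrays, and fell (adjusted p = 0.0449). Abcc8, the SUR1 receptor of pancreatic beta cells, differed by -0.04 (adjusted p = 0.843). Lrrc38, a gamma subunit of BK channels, and Tmem38b, a cation channel of the inner calcium store, fell too, by 0.54 and 0.62 (adjusted p = 0.0395 and 0.0277). The unpaired adjusted p was 0.604 for Abcc9, 0.246 for Lrrc38 and 0.209 for Tmem38b. In the paired fit Abcc9 and Tmem38b did not pass whichever number was left out (adjusted p = 0.0917 to 0.146 and 0.0570 to 0.0933), and Lrrc38 passed without number 2 only (0.0246, otherwise 0.0903 to 0.134).

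Of 11 measured genes for other parts of the surface membrane that make a fibre excitable, 5 were lower and 1 higher, with a median of -0.52. Clcn1, the chloride channel that steadies the resting voltage with Kir2.1, fell by 0.67 (adjusted p = 0.0261). Its levels were 9.67, 10.44, 10.73 and 10.47 in the controls and 8.51, 9.94, 10.17 and 9.99 in the Nf1Prx1 arrays, lowest in both arrays of number 1. Atp1b2, a beta subunit of the sodium-potassium pump that brings potassium back into the fibre, fell by 0.65 (adjusted p = 0.0226). Ank3, which anchors channels to the membrane skeleton, and Dlg1, a scaffold protein of the membrane, fell by 0.57 and 0.41 (adjusted p = 0.0355 and 0.0379). Cacng1, a subunit of the surface calcium channel, fell by 0.58 (adjusted p = 0.0176). Sntb1, a syntrophin of the dystrophin complex, rose by 0.90 (adjusted p = 0.0150). The unpaired adjusted p of these 6 genes was 0.174 to 0.568. Ank3 and Dlg1 did not pass in the paired fit whichever number was left out (adjusted p = 0.0573 to 0.109 and 0.0720 to 0.137), and none of the 6 passed without number 4 (0.0764 to 0.109).

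The authors' deposited table gives the same genes by probe set, with 823 probe sets for the 93 genes. The spread and test values printed there fit 5 arrays in a group where its notes say 4. Which arrays it used is therefore unclear, and it is not an independent experiment. Of the 823 probe sets of the authors' deposited table, 74, or 8.99%, had an unadjusted p under 0.05, where 14.7% of all 234873 did. Of the 74, 55 were lower in the mutants, as were 17425 of the 34417 with such a p among all probe sets. After adjustment over all probe sets 1 of the 823 passed, where 0.120% of all passed. It was the second of 7 probe sets of Kcnk4, the TRAAK channel, with a mean of 8.1 in control and 7.4 in mutant muscle (adjusted p = 0.0422). The 7 Kcnk4 probe sets of the authors' deposited table had a median difference of -0.08, so the rest of the gene did not share that size.

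In the authors' deposited table every probe set was lower in the mutants for Kcnj2 (4 of 4), Kcnc1 (12 of 12), Kcna7 (5 of 5), Kcnj11 (6 of 6), Kcnn2 (12 of 12) and Kcnj13 (2 of 2), and 13 of 14 were for Kcnq5. The medians ran from -0.71 for Kcnj2 to -0.31 for Kcnn2, and most single probe sets, though neither of Kcnj13, had an unadjusted p above 0.05. In Kcnj11, the last probe sets, the fifth and the sixth, differed most in the authors' deposited table, by -1.66 and -1.53, with wide spread in the mutants (means 6.3 and 7.4, SD 1.62 and 1.43). Kcnma1, a long gene with 35 probe sets, had a median of 0.00, with 17 lower and 18 higher. The authors' lists of changed probe sets held 5 lower ones from this set, from Kcnk4, Kcnj10, Kcnu1, Kcnj13 and Kcnh6, and 1 higher one, from Kcnk2. These lists take in 0.367% and 0.765% of all probe sets. Each of these genes had 1 probe set listed, and the other probe sets of a gene did not always share its direction. Lower in the mutants were 5 of 7 probe sets of Kcnk4, 3 of 6 of Kcnj10 and 13 of 27 of Kcnu1. For Kcnj13 2 of 2 were lower, for Kcnh6 9 of 13, and for Kcnk2 9 of 10 were higher.

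**Figure D4:**
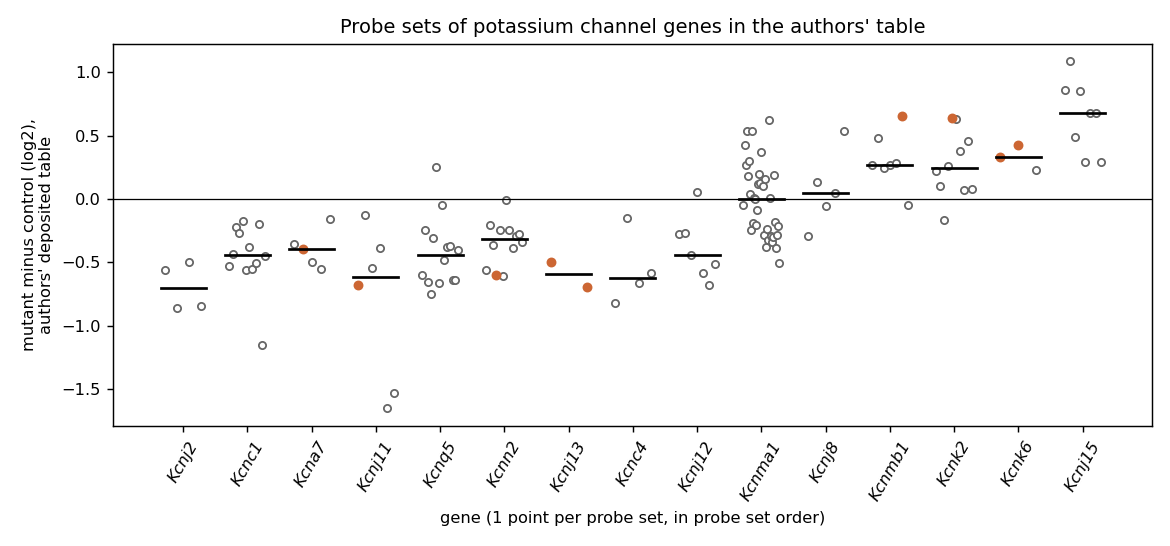
Difference between mutant and control muscle (log2, vertical axis) for each probe set of 15 potassium channel genes in the authors' deposited table. Each point is a probe set, filled where the authors' unadjusted p was under 0.05, and black lines are the gene's median. All points of Kcnj2, Kcnc1, Kcna7, Kcnj11, Kcnn2, Kcnj13 and Kcnc4 lie below 0, and those of Kcnma1 spread to both sides.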

How the data were processed

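RNA of 8 triceps was measured on 8 arrays. The authors made the log2 values per transcript cluster by RMA in the Affymetrix Expression Console, per the submitters' processing notes, which give no versions. Per the file headers, the authors' deposited table covers 234873 probe sets with unadjusted p-values, the ratio and the fold change between the groups, and the F score of a test. The series text names another Affymetrix tool, and which steps used it is not given in the sources used here. The genome build is not given in the sources used here either.

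The array annotation gave a single symbol to 21789 of the 35556 clusters (1621 several, 12146 none listed), updated by Entrez ID for 21698. The brightest cluster stood for each of 999 genes that had more than 1, giving 19938 genes. Differences were tested with limma 3.58.1 in R 4.3.3 (lmFit, eBayes, two-sided, Benjamini-Hochberg over all genes, threshold 0.05) without a filter. Deviations from group means correlated across genes at 0.296 to 0.714 for arrays of the same number and at -0.531 to 0.303 otherwise. Every same-numbered pair exceeded 0.1, so the numbers were taken as pairs, but some arrays of different numbers exceeded it too. Control 4 correlated with Nf1Prx1 4 at 0.296 and with Nf1Prx1 3 at 0.289, and control 3 with Nf1Prx1 4 at 0.303. Numbers 3 and 4 were therefore not clearly told apart. This pairing comes from the data, not a stated design, and paired p-values may be too small. The p-values of the authors' deposited table were adjusted over all its probe sets with scipy 1.17.1. The sample titles call the replicates biological. The number of arrays limits precision.

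On simulated data with 19938 genes and independent arrays, the unpaired fit recovered 13 of 100 changes of 0.5 and 75 of 100 of 1 (log2), and the paired fit 0 and 28, for this comparison. The measured arrays of the same number deviated together, so the simulated recovery does not describe the paired fit on the measured arrays.

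The genes, lists and tests were chosen with earlier results of these data known. Genes were named if called in either fit, if the groups did not overlap, as the 2 smallest p in each class, or from a list of 34 channel genes of muscle or its other cells. Some members are not reported here. Genes named outside this rule were chosen after their values were seen. In lists of other genes, lower and higher mean called in the paired fit, where 5.00% of all genes were lower and 3.36% higher. Lists with no call described above were Schwann cell and endothelial genes (0 of 6 and 0 of 8) and brown adipocyte genes (0 of 6). Pericyte and lymphocyte genes had 1 of 7 and 1 of 7 higher, and smooth muscle genes 1 of 7 lower.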

Additional observations from a re-analysis of the deposited data

Results flagged for a closer look

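In 82 groups of 4 arrays (41 named genes), 4 held an array far from the other 3, where chance gives about 1 in 20. Kcnj15 was 9.12 in Nf1Prx1 1 against 6.86 to 6.93. Kcnq1 was 8.40 in Nf1Prx1 2 against 7.35 to 7.44. Kcnq5 was 8.62 in control 1 against 10.12 to 10.32. Kcng4 was 9.53 in control 3 against 8.78 to 8.86.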

How the results depend on the processing

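Counts of calls depended on the replicate block and on the array weights. Over all genes, 0 passed in the unpaired fit, 1667 with the replicate block, 3070 with array weights, 5 after quantile normalization and 96 without control 1 and Nf1Prx1 1, and 0 to 3 when 1 array was left out. Among the potassium channel genes 0 passed in the unpaired fit, 7 with the replicate block, 9 with array weights, and 0 with each single array left out. With the replicate block and number 1, 2, 3 or 4 left out, 719, 1202, 206 and 50 of all genes and 5, 8, 4 and 0 members passed. Groups fully apart, 3 members as reported, were 0 with dim genes left out, 2 with the mean of all clusters, 5 after quantile normalization, 3 to 17 with 1 array left out, and 22 without control 1 and Nf1Prx1 1, where 23.7% of all genes were. Without number 1, 2, 3 or 4 they were 22, 9, 12 and 8. Of the member probe sets in the authors' deposited table, 74 had an unadjusted p under 0.05, against 1 adjusted. The 7 genes that fell kept their direction under all alternatives in which they were fitted. The filter on dim genes left 24 members, without Kcnj13 and Kcnn2. The cause of these changes was not tested.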

Other observations

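Kcna7, Kcnj11 and Kcnc1, 3 of the 7 genes that fell, lie on mouse chromosome 7 in the RefSeq gene order (GRCm38.p6), a position looked up after their values were seen. Of the 8 measured members on that chromosome the other 5, Kcnn4, Kcnk6, Kcnj14, Kcne3 and Kcnq1, did not pass, with differences of 0.09 to 0.42. Between Kcnc1 and Kcnj11 lie 4 protein-coding genes, all 4 of them measured, with 1 lower. Between Kcna7 and Kcnc1 lie 45, of which 42 were measured. Of these, 3 were lower, Kcnj11 included, with none higher and a median difference of -0.04. The share of all genes, or of all called genes, that lies on chromosome 7 is not given here. Whether these counts exceed the share of all genes called lower in the paired fit was not tested.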
